A study of Rattus norvegicus with 16 samples.

Results

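The CDK inhibitors of the Cip/Kip and Ink4 families were described in cultured rat islets across 3 treatments. The members are the 7 genes Cdkn1a, Cdkn1b and Cdkn1c (Cip/Kip) and Cdkn2a, Cdkn2b, Cdkn2c and Cdkn2d (Ink4). They were chosen by symbol: every probe set that the platform annotation gives to 1 of these symbols was taken. This gave 11 of the 31042 probe sets that are no control, and 7 of the 14217 genes tested. All 7 members were measured, with no filter on low values.

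The islets came from male Wistar rats of 8 weeks and were cultured in RPMI medium with 8 mM glucose and 10% serum. They were left untreated (n = 5 arrays), received the control adenovirus Adβgal, which makes the bacterial enzyme β-galactosidase (n = 6), or received AdNkx6.1, which delivers the beta cell transcription factor Nkx6.1 (n = 5). Both viruses had the same stated particle concentration, were present for 18 h and were followed by virus-free medium, and RNA was collected at 48 h. Each array is 1 biological replicate by its title, and whether each came from separate animals is not stated, so p-values measure the spread between these samples. The promoter that drives either delivered gene, and the share of islet cells that took up virus, are not given in the sources used here.

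Cyclin-dependent kinases (CDKs) drive the cell cycle once they bind a cyclin. Proteins of the Ink4 family bind CDK4 and CDK6 and keep them from D-type cyclins, whereas those of the Cip/Kip family bind complexes of cyclin and CDK more widely, above all cyclin E with CDK2. When the kinases are free they phosphorylate the retinoblastoma protein Rb, which releases E2F factors and opens S phase. Adult beta cells divide rarely, and these inhibitors are known brakes on their division.

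Values are log2 intensities of a probe set, which is a group of short probes against 1 transcript. They are given per array, as mean ± SD of a group, or as a log2 change ± SE between groups from limma's fit, with p-values adjusted by Benjamini-Hochberg over all genes. A gene was called changed at an adjusted p under 0.05. Each gene takes the values of its brightest probe set by mean, and the dimmer probe sets of Cdkn1a, Cdkn1b, Cdkn2c and Cdkn2d, which are described beside it, have p-values adjusted over all probe sets. The brightness of different probe sets is not comparable, so levels are compared only within a probe set. Differences in bulk islets do not tell a change per cell from a change in the share of the cells that express a gene.

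The median intensity of the arrays lay between 264.9 and 296.4. The islet hormone genes Ins1, Ins2, Iapp, Gcg and Sst were each brighter than at least 99.68% of genes. The mean of 11 measured islet endocrine markers of 12 moved with treatment, relative to its mean over all arrays: untreated arrays lay at 0.06 to 0.2, Adβgal arrays at -0.06 to 0.03, and AdNkx6.1 arrays at -0.19 to -0.03. Of these 11 genes 7 were called lower for AdNkx6.1 against untreated, 2 for AdNkx6.1 against Adβgal and 2 for Adβgal against untreated. With Adβgal replicates 4 to 6 left out, these counts were 7, 1 and 0 in the same order. Nkx6-1 read 12.23 ± 0.09 untreated, 11.90 ± 0.19 with Adβgal and 11.43 ± 0.17 with AdNkx6.1. Whether this rat probe set lies within the delivered sequence is not stated, so it does not check the labels. Adβgal replicates 4, 5 and 6 stood apart in genes of digestive acinar cells: the mean of 17 measured markers of 19 lay 1.78, 1.07 and 1.16 above its mean over all arrays, against -1 to 0.47 in the other Adβgal arrays. Leukocyte markers were also highest there, at 0.20, 0.51 and 0.78 in the same order. Endothelial markers ran from -1.16 in Adβgal replicate 1 to 1.27 in Adβgal replicate 5. They ran from -0.53 to 0.47 with AdNkx6.1 and from -0.41 to -0.18 untreated. Leaving out Adβgal replicates 4 to 6 keeps replicate 1, so it does not remove all of this spread. The log2 of the summed acinar intensities ran from 14.37 to 16.66 with Adβgal, 14.47 to 15.77 with AdNkx6.1 and 14.71 to 15.38 untreated. For 10 of 12 duct markers it ran from 16.1 to 16.2 with AdNkx6.1, above the 15.67 to 15.92 with Adβgal and the 15.7 to 15.84 untreated. A sum weighs the brightest markers most. The mean of the duct markers, relative to its mean over all arrays, overlapped between AdNkx6.1 (-0.02 to 0.24) and Adβgal (-0.3 to 0.15). Untreated it lay at -0.17 to -0.04. Of the 10 duct genes 4 were called higher against Adβgal, 0 lower, and 6 were not called. With Adβgal replicates 4 to 6 left out, 5 were called higher and 1 lower. Intensities do not reach 0, so no marker can be read as absent. The part of these other cells in the results below was not tested, and values of the members without Adβgal replicates 4 to 6 are given where a call changes, with the counts of gene lists where they differ.

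The promoters of Cdkn1a, Cdkn2d and Cdkn2c are shown first, since the arrays read RNA made from them. RefSeq sequences of the GRCr8 build were given for 6 of the 7 members, as the 250 bases before the annotated start. Capitals mark a match to the p53 response element in Cdkn1a and GC boxes (GGGCGG on either strand) in Cdkn2d and Cdkn2c. Cdkn1a and Cdkn2d rose with AdNkx6.1 and Cdkn2c did not.
Cdkn1a: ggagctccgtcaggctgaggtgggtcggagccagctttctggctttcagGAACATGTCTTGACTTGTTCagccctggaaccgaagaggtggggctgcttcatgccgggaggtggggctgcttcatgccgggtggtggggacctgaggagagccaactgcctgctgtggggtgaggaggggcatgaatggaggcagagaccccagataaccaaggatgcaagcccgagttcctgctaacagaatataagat
Cdkn2d: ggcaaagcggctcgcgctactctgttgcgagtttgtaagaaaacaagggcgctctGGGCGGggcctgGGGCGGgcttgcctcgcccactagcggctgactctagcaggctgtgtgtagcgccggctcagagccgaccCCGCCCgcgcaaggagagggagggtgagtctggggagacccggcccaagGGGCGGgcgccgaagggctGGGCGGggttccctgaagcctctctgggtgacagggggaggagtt
Cdkn2c: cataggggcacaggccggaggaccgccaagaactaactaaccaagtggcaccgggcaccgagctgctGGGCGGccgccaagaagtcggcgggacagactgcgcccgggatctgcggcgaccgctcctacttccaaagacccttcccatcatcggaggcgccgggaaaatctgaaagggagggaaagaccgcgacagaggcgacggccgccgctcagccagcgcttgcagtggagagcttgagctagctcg
These windows lie at chr20:7150682-7150931 on the plus strand, chr8:28110810-28111059 on the minus strand and chr5:129644892-129645141 on the minus strand. The p53 element was searched by its consensus of a pair of adjoining decamers, on both strands, with at most 1 mismatch. It matched in Cdkn1a with 1 mismatch, from 201 to 182 bases before the start, and 20 of 33469 promoters of this length held such a match (0.0598%). Cdkn1a had no GC box, Cdkn2d had 5 between 195 and 40 bases before the start, and Cdkn2c had 1; 30.5% of all promoters held at least 1. Cdkn2b had 3 GC boxes, and Cdkn1b and Cdkn2a had 1 each. The homeodomain core TAAT, searched since Nkx6.1 is a homeodomain protein, occurred in the window of Cdkn2b alone among these 6, and in 57% of all promoters. The TATA box TATAAA (12.9% of promoters) and the E2F sites TTTCGCGC or TTTGGCGC (0.636%), both strands searched, were in no window of these 6. The G and C content of the 6 windows ran from 58.8% to 68.8%, against a median of 51.2%. A match is a run of letters and shows no binding. Sequence of the members outside these windows was not searched, so a site missing here may lie elsewhere in the gene's promoter.

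The comparison of AdNkx6.1 with Adβgal sets the virus with the factor beside a virus without it. In it 4 of the 7 inhibitor genes rose and 0 fell: Cdkn1c by 11.8-fold, Cdkn1a by 2.08-fold, Cdkn2a by 1.45-fold and Cdkn2d by 1.34-fold. Cdkn1b, Cdkn2b and Cdkn2c did not pass the test. Of all genes, 25% were called in this comparison, 16.6% higher and 8.48% lower. The median log2 change of the members was 0.42, against 0.02 over all genes. In 3 members (Cdkn1a, Cdkn1c and Cdkn2d) the lowest AdNkx6.1 array was above the highest Adβgal array, which held for 10.4% of all genes. Of the 11 probe sets 6 were called, against 20% of all probe sets.

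Cdkn1c encodes p57, a Cip/Kip inhibitor made from the maternal copy of the gene. Its only probe set read 9.23, 9.02, 9.29, 9.52 and 9.38 on the 5 AdNkx6.1 arrays. With Adβgal it ran from 5.26 to 6.16 with a median of 5.74, and untreated it read 6.59, 6.23, 5.72, 6.45 and 6.1. The AdNkx6.1 arrays formed a group far above both others, which overlapped each other. The means were 9.29 ± 0.19, 5.73 ± 0.37 and 6.22 ± 0.34. The log2 change was 3.56 ± 0.18 against Adβgal (limma adjusted p = 1.11e-09) and 3.07 ± 0.18, or 8.41-fold, against untreated (adjusted p = 1.05e-08). In both control groups the probe set was dim, with 27.4% of probe sets lower with Adβgal and 33.7% lower untreated, so the fold rests on a faint reading that can hold background. With 32 added to each intensity the log2 changes were 2.94 against Adβgal and 2.62 against untreated. Adβgal against untreated gave -0.49 ± 0.18 (95% interval -0.86 to -0.11), which missed the threshold (adjusted p = 0.0989) and passed it only without Adβgal replicate 2, at -0.58 (adjusted p = 0.0469).

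Cdkn1a encodes p21, the Cip/Kip inhibitor best known as a target of p53. Its brighter probe set read 12.83, 12.77, 12.84, 12.81 and 12.84 with AdNkx6.1. It ran from 11.58 to 11.90 with a median of 11.79 with Adβgal, and read 11.59, 11.47, 11.57, 11.36 and 11.34 untreated. The AdNkx6.1 arrays were nearly alike and stood above all others, while the other groups met at one array each. AdNkx6.1 exceeded Adβgal by 1.05 ± 0.07 (adjusted p = 1.98e-08) and untreated by 1.35 ± 0.07, or 2.55-fold (adjusted p = 2.27e-09). Cdkn1a was also the only member called for the control virus itself, 1.23-fold above untreated (0.30 ± 0.07, adjusted p = 0.0159). That call was lost without untreated replicate 4 (adjusted p = 0.0536) or 5 (0.054) and without Adβgal replicates 4 to 6 (0.27, 0.0719). The order of the levels was thus AdNkx6.1, Adβgal, untreated, with the lower step resting on single arrays.

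The dimmer probe set of Cdkn1a had the same order of means. It read 8.50, 8.31, 8.92, 9.00 and 8.76 with AdNkx6.1, ran from 7.11 to 7.42 with Adβgal, and read 6.64, 7.34, 6.98, 6.81 and 6.58 untreated. Again the AdNkx6.1 arrays did not overlap the others. The changes were 1.44 ± 0.14 against Adβgal (adjusted p = 3.49e-06) and 1.83 ± 0.15 against untreated (adjusted p = 3.96e-07). Adβgal against untreated was 0.39 ± 0.14 and missed the threshold (adjusted p = 0.0975).

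Cdkn1b encodes p27, which holds cyclin E with CDK2 in check in resting cells and is abundant in islets. Its brighter probe set read 12.49, 12.61, 12.80, 12.29 and 12.59 with AdNkx6.1, ran from 12.46 to 12.99 with Adβgal, and read 12.58, 12.89, 12.76, 12.86 and 12.87 untreated. The 3 groups overlapped throughout. The difference between AdNkx6.1 and Adβgal was -0.13 (95% interval -0.35 to 0.09, adjusted p = 0.407), and that from untreated was -0.23 ± 0.11 (adjusted p = 0.123). The latter was called with array weights, at -0.27 (adjusted p = 0.00412). The dimmer probe set gave 0.13 ± 0.25 (adjusted p = 0.761) and 0.06 ± 0.26 (adjusted p = 0.910) in the same order. Its Adβgal arrays ran from 9.71 to 11.54, wider than the 10.72 to 11.43 with AdNkx6.1 and the 10.82 to 11.17 untreated. Its sign in the first comparison turned to -0.24 without Adβgal replicates 4 to 6.

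**Figure D1:**
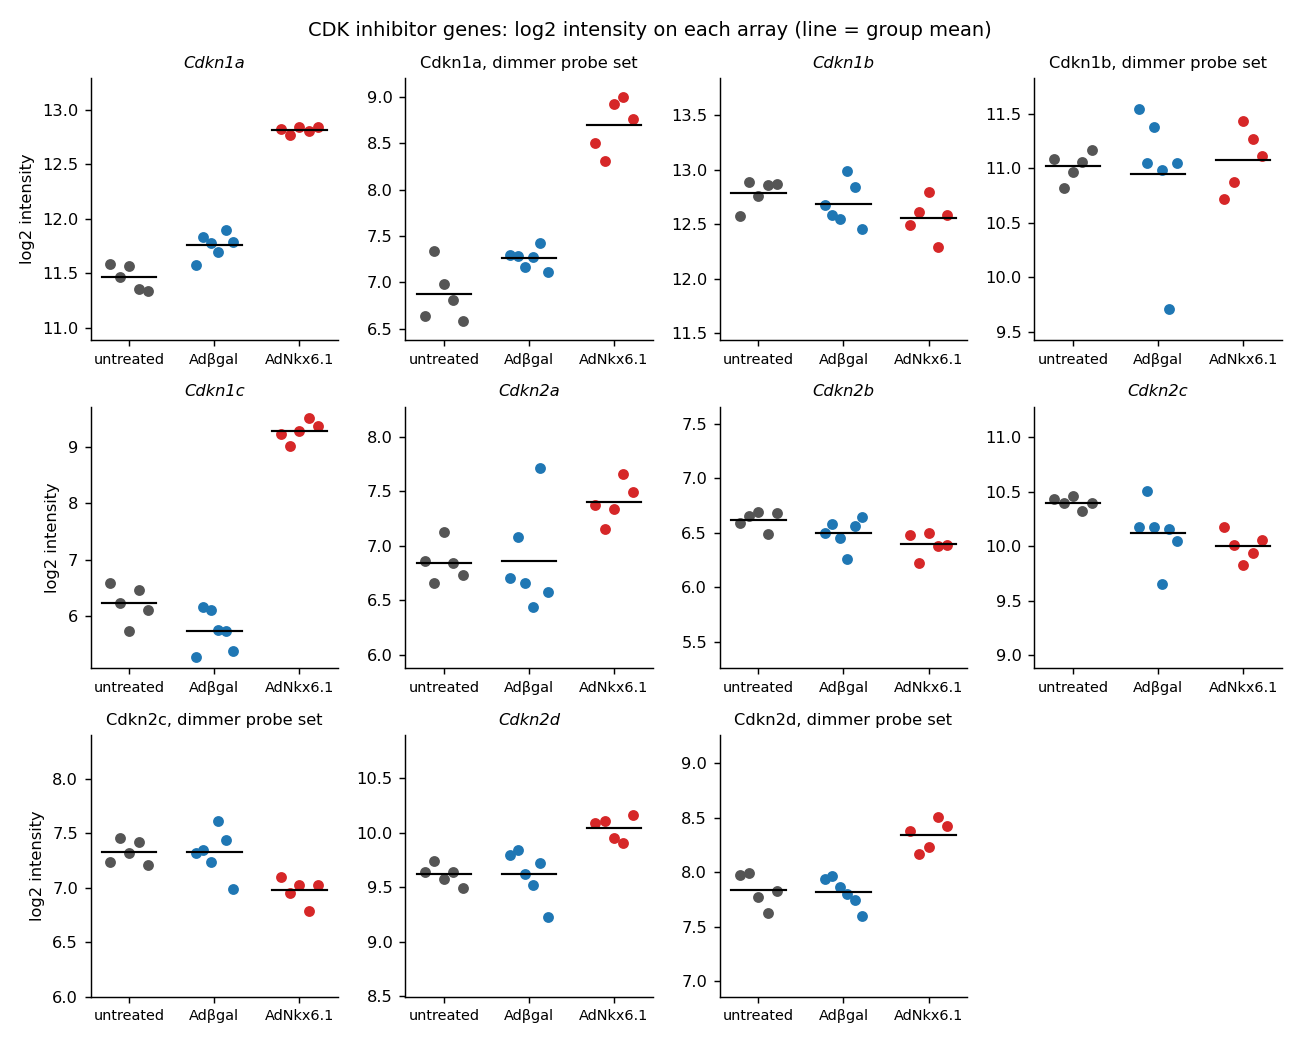
Log2 intensity (vertical axes, scaled per panel) of each probe set of the 7 inhibitor genes on each of the 16 arrays, by group (untreated, Adβgal, AdNkx6.1), with points for arrays and lines for group means. The AdNkx6.1 arrays of Cdkn1c lie at 9.02 or above and all others at 6.59 or below, whereas the groups of Cdkn1b overlap.

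Cdkn2d encodes p19Ink4d, an Ink4 protein whose level varies over the cell cycle. Its brighter probe set read 10.09, 10.11, 9.95, 9.91 and 10.16 with AdNkx6.1. It ran from 9.23 to 9.84 with a median of 9.67 with Adβgal, and read 9.64, 9.74, 9.58, 9.64 and 9.49 untreated. All AdNkx6.1 arrays lay above all others, and the other groups both had means of 9.62. The change was 0.42 ± 0.10 against Adβgal (adjusted p = 0.00456) and 0.43 ± 0.10, again 1.34-fold, against untreated (adjusted p = 0.00465). Without Adβgal replicates 4 to 6 the first was 0.29 (adjusted p = 0.0164). The dimmer probe set had the same direction and did not overlap either, at 0.53 ± 0.09 (adjusted p = 0.000737) and 0.51 ± 0.10 (adjusted p = 0.00116). Adβgal differed from untreated by 0.01 (95% interval -0.20 to 0.21, adjusted p = 0.976).

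Cdkn2a encodes both p16Ink4a and, in another reading frame, the p53 regulator p19Arf. It has 1 probe set, and whether this set reads one or both transcripts is not given in the sources used here. It read 7.37, 7.15, 7.34, 7.66 and 7.49 with AdNkx6.1, 6.70, 7.08, 6.66, 6.44, 7.71 and 6.58 with Adβgal, and 6.86, 6.66, 7.13, 6.84 and 6.73 untreated. Adβgal replicate 5 exceeded every AdNkx6.1 array, and the untreated arrays lay below all of them. The change against Adβgal was 0.54 ± 0.18 (adjusted p = 0.0407) and stood close to the threshold. The adjusted p was 0.000486 without Adβgal replicate 5 and 0.00456 without Adβgal replicates 4 to 6. The call was lost, with adjusted p from 0.0507 to 0.107, on leaving out any 1 of untreated replicates 1, 4 and 5, Adβgal replicates 1, 3, 4 and 6, or AdNkx6.1 replicates 1, 3, 4 and 5. Against untreated the change was 0.56 ± 0.19, or 1.47-fold (adjusted p = 0.0358). It was lost, with adjusted p from 0.0533 to 0.0918, without any 1 of untreated replicates 1, 2, 4 and 5 or AdNkx6.1 replicates 1, 3, 4 and 5. Adjusted over all probe sets neither passed, at 0.0509 and 0.0512.

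Cdkn2c encodes p18, an Ink4 inhibitor of CDK4 and CDK6. Its brighter probe set read 10.18, 10.01, 9.83, 9.94 and 10.06 with AdNkx6.1, ran from 9.65 to 10.51 with a median of 10.17 with Adβgal, and read 10.43, 10.40, 10.46, 10.32 and 10.40 untreated. The untreated arrays were tightly grouped above all AdNkx6.1 arrays, and the Adβgal arrays spanned both. AdNkx6.1 against untreated was lower by 1.32-fold (-0.40 ± 0.12, adjusted p = 0.0172). AdNkx6.1 against Adβgal was -0.12 (95% interval -0.36 to 0.12, adjusted p = 0.498), which passed without Adβgal replicates 4 to 6, at -0.28 (adjusted p = 0.034), and with the mean of both probe sets, at -0.23 (adjusted p = 0.0323). Adβgal against untreated was -0.28 ± 0.11 (adjusted p = 0.133) and passed only without Adβgal replicate 2, at -0.36 (adjusted p = 0.0334).

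The dimmer probe set of Cdkn2c, of a kind whose probes can match other transcripts, put the step elsewhere. It read 7.10, 6.95, 7.03, 6.79 and 7.03 with AdNkx6.1, ran from 6.99 to 7.61 with Adβgal, and read 7.24, 7.46, 7.32, 7.42 and 7.21 untreated. Here the control virus and untreated arrays overlapped, with means of 7.32 ± 0.20 and 7.33 ± 0.11. AdNkx6.1 was lower than Adβgal by -0.34 ± 0.10 (adjusted p = 0.0216) and lower than untreated by -0.35 ± 0.10 (adjusted p = 0.0224). The first call was lost without AdNkx6.1 replicate 4 (adjusted p = 0.0666), and the second without that array (0.0664) or without untreated replicate 2 (0.0617) or 4 (0.0574).

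Cdkn2b encodes p15, the Ink4 inhibitor known as a target of TGF-β signalling. It read 6.48, 6.22, 6.50, 6.38 and 6.39 with AdNkx6.1, ran from 6.26 to 6.64 with a median of 6.53 with Adβgal, and read 6.59, 6.65, 6.69, 6.49 and 6.68 untreated. The group ranges overlapped, and the probe set was dim, with at most 37.5% of probe sets lower in any group. AdNkx6.1 differed from Adβgal by -0.11 (95% interval -0.27 to 0.06, adjusted p = 0.348). It was lower than untreated by 1.17-fold (-0.22 ± 0.08, adjusted p = 0.0424). That call was lost, with adjusted p from 0.051 to 0.111, without any 1 of untreated replicates 1, 2, 3 and 5, Adβgal replicate 3, or AdNkx6.1 replicates 2, 4 and 5.

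Exposure to the control virus was read from Adβgal against untreated. Cdkn1a was the 1 member that rose, 0 fell, and 3 had an unadjusted p under 0.05. Of all genes 7.01% were called, 2.84% higher and 4.17% lower, and 1 call among 7 genes is near that background. No member's groups were free of overlap, against 6.88% of all genes. Of the 11 probe sets 1 was called, against 8.65% of all probe sets. The median change of the members was -0.10, against -0.04 over all genes.

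AdNkx6.1 against untreated shares its arrays with the other comparisons and adds no independent evidence. Cdkn1a, Cdkn1c, Cdkn2a and Cdkn2d rose, Cdkn2b and Cdkn2c fell, and Cdkn1b did not pass. Of all genes 30.7% were called, 16.9% higher and 13.8% lower. The groups did not overlap for 4 members that rose, against 17.4% of all genes, and for Cdkn2c among those that fell, against 14.7%. Of the 11 probe sets 7 were called, against 20.8% of all probe sets. The median change of the members was 0.43, against -0.01 over all genes. The Cip/Kip and Ink4 families each held members that rose, and the members that fell were both of the Ink4 family; the families were not tested against each other.

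**Figure D2:**
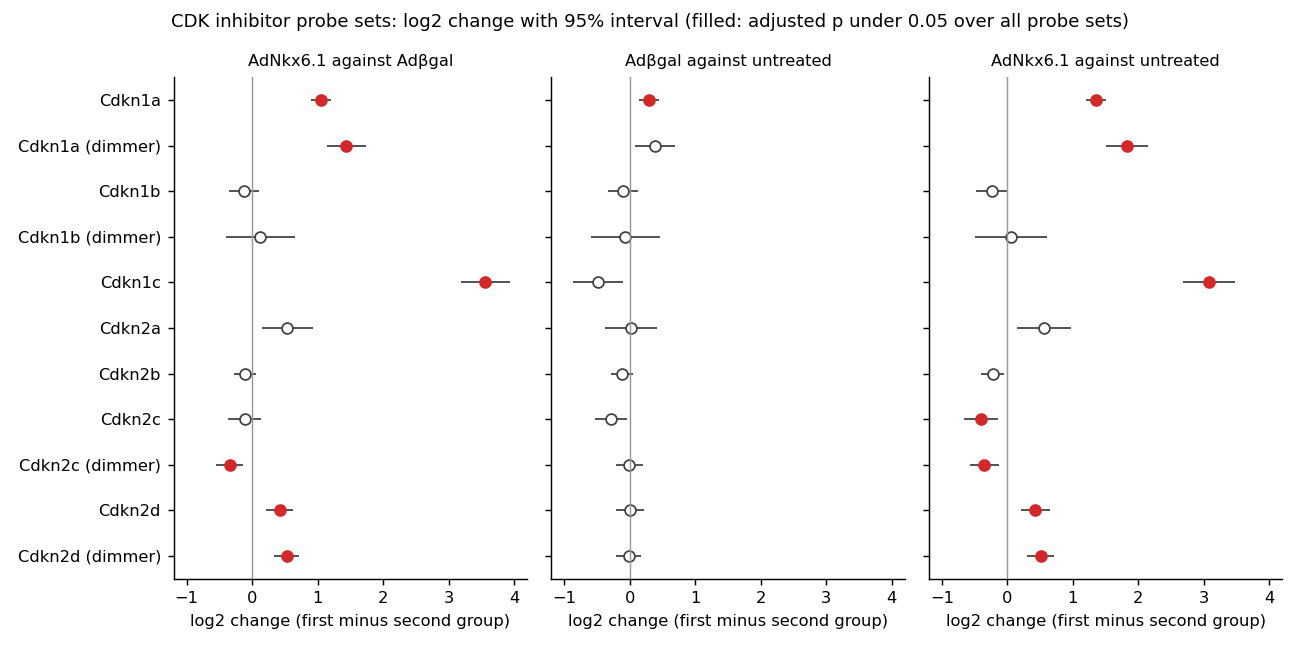
Log2 change (horizontal axis, first minus second group) of each of the 11 inhibitor probe sets in the 3 comparisons, with 95% intervals; filled points have an adjusted p under 0.05 over all probe sets. Cdkn1c stands at 3.56 and the 2 probe sets of Cdkn1a at 1.05 and 1.44 for AdNkx6.1 against Adβgal, and the Cdkn2c probe sets lie below 0.

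Cyclins, CDKs and some of their regulators, such as Cdc25b, were taken as a list of 22 genes, of which 20 were measured. Not all of their products are bound by the inhibitors. With AdNkx6.1 against Adβgal 9 rose and 0 fell, with a list median of 0.26; 10 rose without Adβgal replicates 4 to 6. Cdk2, the partner of cyclin E, rose 3.73-fold, from 8.72 ± 0.48 to 10.62 ± 0.13 (log2 change 1.90 ± 0.18, adjusted p = 1.1e-06). Ccne1, which encodes cyclin E1, rose 3.15-fold, from 8.52 ± 0.31 to 10.18 ± 0.32 (1.66 ± 0.15, adjusted p = 1.06e-06). Ccnd3, the D-type cyclin D3 whose kinases the Ink4 proteins bind, rose 1.66-fold, and the CDK-activating phosphatase gene Cdc25b rose 1.56-fold. Against untreated 10 rose and 0 fell, with Cdk2 at 2.20 ± 0.18, Ccne1 at 1.77 ± 0.16 and the mitotic kinase gene Cdk1 at 0.77 ± 0.15. Without Adβgal replicates 4 to 6 in the fit that count was 12. In that fit 18% of all genes were higher against Adβgal, 22.7% for AdNkx6.1 against untreated and 1.72% for the control virus. With all arrays these shares were 16.6%, 16.9% and 2.84%, so list counts from the 2 fits have different backgrounds. The control virus against untreated gave 0 calls in this list.

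Of 16 measured genes of the Rb and E2F list 7 rose and 0 fell against Adβgal, with a median of 0.09, and without Adβgal replicates 4 to 6 only 5 rose. All of the 4 with the smallest p were E2F factors: the activators E2f1 (0.96 ± 0.13, adjusted p = 5.58e-05) and E2f2 (1.47 ± 0.20, adjusted p = 6.08e-05) and the repressors E2f8 (1.72 ± 0.26) and E2f7 (1.19 ± 0.25). Rb1 itself, the gene of the retinoblastoma protein, fell with the control virus, by 0.42 on the log2 scale against untreated (adjusted p = 0.0108). That call was lost without Adβgal replicates 4 to 6, at -0.29 (adjusted p = 0.0768). Rb1 was also lower with AdNkx6.1 than untreated, by -0.46 ± 0.09 (adjusted p = 0.00137). Proliferation markers rose in 12 of 19 measured cases against Adβgal, with a median of 0.47, and in 16 of 19 against untreated, with a median of 0.83. The control virus alone also raised 6 of 19 over untreated, with a median of 0.33. Without Adβgal replicates 4 to 6 these counts were 14, 19 and 1 in the same order. Genes of division and 4 of their inhibitors were thus higher on the same AdNkx6.1 arrays.

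Of 16 measured genes listed for the turnover of inhibitor proteins 8 rose and 0 fell against Adβgal, with a median of 0.21. Without Adβgal replicates 4 to 6 this count was 7. The list does not sort its genes by whether they speed or slow the breakdown of inhibitors. Ubac1, a subunit of a ubiquitin ligase that acts on p27, rose 1.77-fold (0.83 ± 0.10, adjusted p = 1.12e-05). Dtl, which guides a cullin ligase to p21 in S phase, rose 2.21-fold (1.14 ± 0.18, adjusted p = 0.000222). Fzr1, an activator of the anaphase promoting complex, rose 1.59-fold. Cdc20, another activator of that complex, rose by 0.46 ± 0.10, or by 0.27 with the mean of its probe sets. The arrays measure RNA, so the amounts of the inhibitor proteins are not known here.

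Of 32 measured transcriptional regulators of the inhibitors 6 rose and 6 fell against Adβgal, with a median of 0.07; without Adβgal replicates 4 to 6 these counts were 5 and 4. Cebpa, a factor known to raise p21, rose 2.87-fold, from 9.77 ± 0.36 to 11.29, and Hes1, a Notch target known to repress inhibitor genes, rose 2.41-fold (adjusted p = 1.42e-06 and 8.09e-05). Stat5a, a factor downstream of prolactin receptors, rose 1.62-fold, and Klf6, another factor known to raise p21, was 1.3-fold lower. Against untreated Smad3, the TGF-β effector, rose by 1.57 ± 0.27 (0.74 with the mean of its probe sets), while the receptor gene Tgfbr1 was lower by -0.43 ± 0.09. The p53 inhibitor gene Mdm4 rose with the control virus by 0.56 ± 0.12 over untreated (adjusted p = 0.0115). With AdNkx6.1 it was lower than with Adβgal, by -0.64 ± 0.12 (adjusted p = 0.000808). Its means were 8.52 ± 0.05 untreated, 9.07 ± 0.28 with Adβgal and 8.43 ± 0.17 with AdNkx6.1. A further list was drawn up for Polycomb and Trithorax genes, which act on chromatin at the Ink4 locus. Of its 16 measured genes 4 rose and 0 fell against Adβgal, and 7 rose without Adβgal replicates 4 to 6. Among the 4 were Cbx2 (0.70 ± 0.12) and the demethylase gene Kdm2b (0.53 ± 0.09). Another of them was Mif (0.42 ± 0.09), a listed cytokine gene that belongs to neither group, so the count is not of chromatin genes alone.

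Of 18 measured other inhibitors of the cell cycle 6 rose and 0 fell against Adβgal, with a median of 0.10. The stress gene Gadd45b rose 3.4-fold, from 10.41 ± 0.29 to 12.18 (1.77 ± 0.17, adjusted p = 1.31e-06). Gmnn, the replication licensing inhibitor geminin, rose 1.78-fold, and Cdkn3, a phosphatase of CDK2, rose 1.79-fold; both are themselves made in dividing cells. Gadd45g rose 1.4-fold. Against untreated 7 rose and 0 fell, with Gadd45b at 2.26 ± 0.17 and the p53 target Sfn at 1.34 ± 0.24. Sfn was already higher with the control virus than untreated, by 1.07 ± 0.23 (adjusted p = 0.0121). Its change for AdNkx6.1 against Adβgal was 0.26 ± 0.23 (adjusted p = 0.451). Without Adβgal replicates 4 to 6 in the fit 9 of the list rose and 2 fell for AdNkx6.1 against untreated. The control virus raised 3 of the 18 over untreated, and 0 without those replicates. Over all genes 16.6% were higher against Adβgal, 16.9% for AdNkx6.1 against untreated and 2.84% for the control virus. Beside these shares, each of these counts is a description of the list, without a test of the list.

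**Figure D3:**
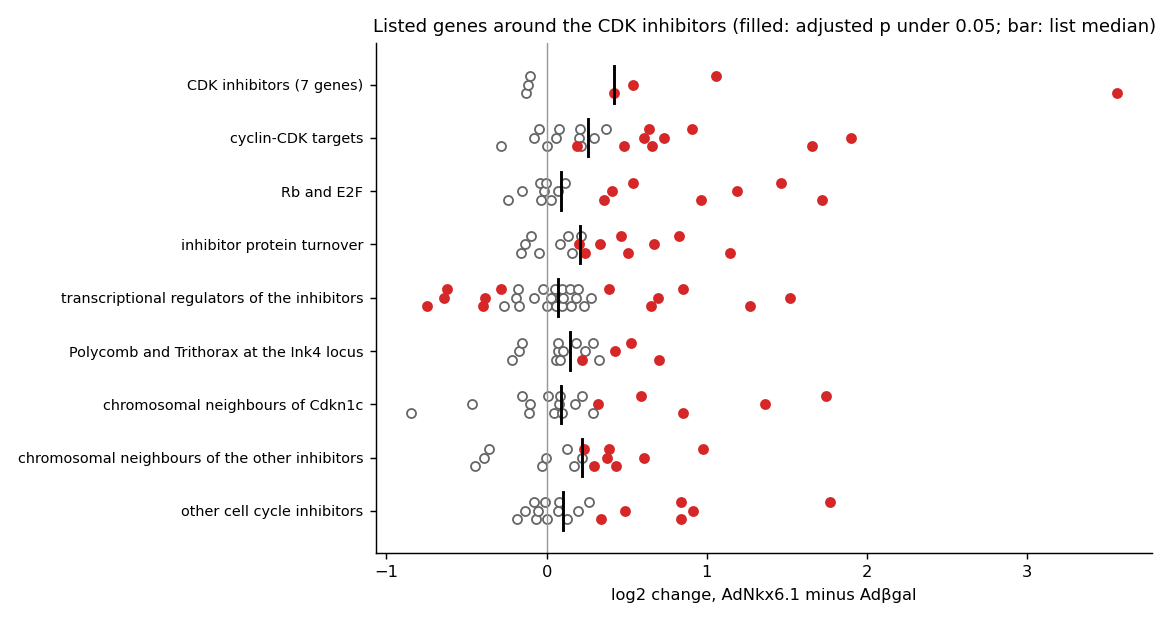
Log2 change for AdNkx6.1 minus Adβgal (horizontal axis) of each measured gene in the lists around the CDK inhibitors; filled points have an adjusted p under 0.05 and bars are list medians. The medians run from 0.07 for the transcriptional regulators to 0.42 for the 7 inhibitors themselves, and single genes lie far from their list's median.

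Cdkn1c lies on rat chromosome 1 in an imprinted cluster, in which some genes are made from only the maternal or only the paternal copy. Gene order was taken from the RefSeq annotation of GRCr8. Of 18 measured listed neighbours, up to 19 genes away, 5 rose and 0 fell with AdNkx6.1 against Adβgal, with a median of 0.09, and 7 rose without Adβgal replicates 4 to 6. None of them changed by as much as Cdkn1c. Ascl2, which lies 6 genes away, rose 3.36-fold from 5.73 ± 0.33 to 7.48 ± 0.23 (1.75 ± 0.15, adjusted p = 4.88e-07). Phlda2, which lies 2 genes away on the other side, rose 2.57-fold from 5.15 ± 0.46 to 6.51 ± 0.06 (1.36 ± 0.17, adjusted p = 1.93e-05). Phlda2 is dim, and with 32 added to each intensity its change was 0.85.

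The next genes on either side of Cdkn1c were singled out after their values were seen. Kcnq1 differed by -0.11 ± 0.36 (adjusted p = 0.856) and Slc22a18 by 0.22 ± 0.26 (adjusted p = 0.578). The Adβgal arrays of Kcnq1 had an SD of 0.997, and without replicates 4 to 6 its difference turned to 0.70 (adjusted p = 0.0144). The growth factor gene Igf2 rose by 0.85 ± 0.15 (adjusted p = 0.000524). That value was 0.53 without Adβgal replicates 4 to 6 and 0.21 with the mean of its probe sets. Ctsd, the lysosomal protease gene 17 genes away, rose by 0.32 ± 0.07. Th, the tyrosine hydroxylase gene, singled out likewise, rose by 0.59 ± 0.17 (adjusted p = 0.0176) and was not called without AdNkx6.1 replicate 2 (0.0525) or 5 (0.0559); its change was 0.27 with 32 added. Against untreated 6 of the 18 rose and 1 fell (8 and 1 without Adβgal replicates 4 to 6 in the fit), with Phlda2 at 1.74 (adjusted p = 2.18e-06) and Ascl2 at 1.38 (adjusted p = 7.85e-06). The control virus gave 0 calls among these neighbours.

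**Figure D4:**
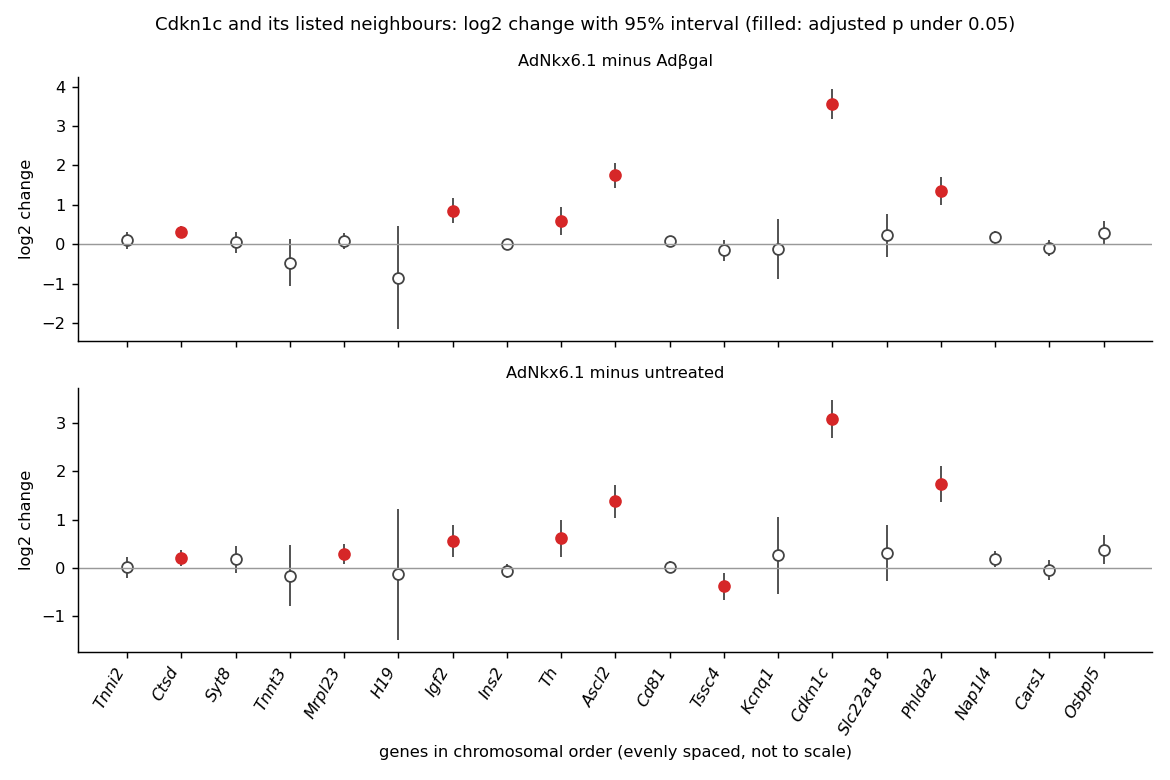
Log2 change (vertical axes) of Cdkn1c and its listed neighbours in chromosomal order (horizontal axis, not to scale), with 95% intervals. The panels show AdNkx6.1 minus Adβgal and AdNkx6.1 minus untreated. Filled points have an adjusted p under 0.05. For AdNkx6.1 minus Adβgal, Cdkn1c stands at 3.56, Ascl2 at 1.75 and Phlda2 at 1.36, while the adjacent Kcnq1 and Slc22a18 have intervals that include 0.

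The genes whose profile over the 16 arrays was nearest to a member's were found by the root mean square (RMS) difference of centred log2 values among 13928 genes. They are a description of these arrays and share every library with the member. Nearest to Cdkn1c, with differences of 0.33 to 0.39, were Sult2b1, Rhof and Tchh, whose changes against Adβgal were 3.12, 3.18 and 3.64. For comparison the median gene lay 1.6 from Cdkn1c. Nearest to Cdkn1a, at 0.11 to 0.15, were Rnd1, Slc1a5 and Metrn, which moved by 1.16, 0.96 and 1.19; the median gene lay 0.61 away. Cep41, Adam15 and Chid1 were nearest to Cdkn2d (0.11 to 0.12), and Sytl1, Tp53rka and Hyal2 to Cdkn2a (0.16 to 0.17). For Cdkn2c they were Spire1, Limd2 and Elapor1 (0.08 to 0.09). For Cdkn2b, whose own SD over the arrays was only 0.14, they were Sephs2, Dsc2 and Mllt11 (0.09).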

How the data were processed

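RNA of rat islets was measured on 16 arrays of 1 colour. The authors deposited 1 linear intensity per probe set and array, from 6.25 to 35765. They used RMA, per the submitters' processing notes, a method that subtracts background, brings arrays to one distribution and combines probes; its version and the return to a linear scale are not given in the sources used here. Log2 of each intensity was taken, with no pseudocount.

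Of 31099 probe sets, 57 controls were left out. Of the rest, 20826 had 1 gene symbol, 436 several and 9780 none. Gene numbers of 20758 matched the RefSeq table, which changed 0 symbols. Each gene was its probe set of highest mean (14217 genes). Limma 3.58.1 in R 4.3.3 fitted the 3 groups at once, with 2-sided tests, Benjamini-Hochberg adjustment over all genes and a threshold of 0.05; a second fit took all 31042 probe sets. The script was tested on simulated data. Tables and figures used Python 3.11.15, pandas 2.3.3 and matplotlib 3.10.9.

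Up to 4 genes of smallest p per list and comparison, and the 3 nearest profiles per called member, could be named; genes named outside that rule are said to be singled out. The members and lists were chosen with earlier results of these data known. The protocol states 5 replicates a condition, and all 6 Adβgal arrays were used. No 2 arrays held identical values. The number of arrays limits the precision. Alternatives were another normalization, a filter on dim genes, 32 added to each intensity, the mean of all probe sets, array weights, a moderated prior with trend, 2-group fits, a replicate block, each array left out, and Adβgal replicates 4 to 6 left out.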

Additional observations from a re-analysis of the deposited data

Results flagged for a closer look

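The dimmer probe set of Cdkn1b read 9.71 on Adβgal replicate 5, the lowest of its group, whose next array stood at 10.98. The gap was 0.697 of the range of the 6 arrays, above Dixon's 95% critical value. It was the only such value among 33 groups of the members' probe sets examined, and chance marks about 1 group in 20. On the same array the Cdkn2a probe set was the highest of its group, at 7.71, the acinar markers stood at 1.07 and the endothelial markers at 1.27; their part in this value was not tested.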

How the results depend on the processing

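Cdkn1a, Cdkn1c and Cdkn2d kept their direction and call for AdNkx6.1 against Adβgal and against untreated under every alternative in which they were tested. Leaving out dim genes removed 3 members by construction, Cdkn1c, Cdkn2a and Cdkn2b, so that Cdkn1c was not tested there. This left 2 of 4 measured members called against Adβgal and 3 of 4 for AdNkx6.1 against untreated. For Adβgal against untreated the member count of 1, and likewise the probe set count of 1, was 0 with only the 2 groups in the fit, 0 with the replicate block and 0 without Adβgal replicates 4 to 6. Leaving out 1 array at a time gave 3 to 4 called members against Adβgal, 0 to 3 for the control virus (0 without untreated replicate 4 or 5, 3 without Adβgal replicate 2) and 4 to 6 for AdNkx6.1 against untreated; for probe sets 5 to 7, 0 to 3 and 5 to 9. Over all genes, the 997 calls for the control virus became 521 with 2 groups, 1790 with array weights and 393 with the block. They became 552 without Adβgal replicates 4 to 6 and 509 to 1503 without 1 array. The 4360 of AdNkx6.1 against untreated became 7469 with array weights and 6144 without Adβgal replicates 4 to 6. Against Adβgal the 3560 calls became 4028 without those replicates.

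Samples of the same replicate number were not alike throughout: 0, 1 and 2 of 5 pairs correlated above 0.1 in the 3 comparisons. As many matched best with their own number. What a shared number means is not stated, and so few pairs cannot exclude that the samples were paired. With the replicate block the adjusted p of Cdkn2a was 0.119 against Adβgal and 0.0623 against untreated, that of Cdkn2b 0.0583 against untreated, that of Cdkn1a for the control virus 0.0898 and that of Rb1 0.0532. Cdkn2a also missed the threshold against Adβgal with quantile normalization (0.0505) and 2 groups (0.0924), and against untreated with quantile normalization (0.103). Cdkn2b missed it with the trended robust prior (0.143), and the dimmer Cdkn2c probe set with 2 groups (0.0612, against Adβgal) and that prior (0.0573 and 0.061). With 2 groups Cdkn1a for the control virus had 0.0604. Igf2 against untreated was 0.087 with the mean of its probe sets (0.359).

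Signs turned in these differences, none of which passed the threshold with all arrays weighted equally and all 3 groups in the fit. The dimmer Cdkn1b probe set gave -0.10 (array weights) and -0.24 (without Adβgal replicates 4 to 6) against Adβgal, 0.17 and 0.30 for the control virus, and -0.025 (median centring) against untreated; without 1 array these ran from -0.12 to 0.25, -0.19 to 0.18 and -0.028 to 0.15. For the control virus, Cdkn2a gave -0.089 (quantile), -0.0025 (median centring), -0.041 (weights) and -0.030 (without replicates 4 to 6), and -0.15 to 0.10 without 1 array. Cdkn2d gave -0.0058 (mean of probe sets), -0.0013 (quantile) and -0.016 (median centring), and -0.037 to 0.084 without 1 array. Its dimmer probe set gave 0.016 (weights), 0.024 (block) and 0.0845 (without replicates 4 to 6), and -0.072 to 0.024 without 1 array; that of Cdkn2c gave 0.057 (block) and -0.065 to 0.057 without 1 array. Kcnq1 against Adβgal gave 0.29 (weights) and 0.70 (without replicates 4 to 6, where it passed at adjusted p = 0.0144), and -0.34 to 0.15 without 1 array. The cause was not tested. Detection calls were not used, so differences of dim probe sets such as those of Cdkn1c and Cdkn2b in the controls are limited by background.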

Other observations

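Of 15 measured neighbours of the other inhibitor genes, 7 rose and 0 fell with AdNkx6.1 against Adβgal, and 6 rose without Adβgal replicates 4 to 6. Over all genes 16.6% rose and 8.48% fell. Atg4d, an autophagy protease gene 2 genes from Cdkn2d on chromosome 8, rose by 0.38 ± 0.08 (limma adjusted p = 0.00173). Its neighbours were singled out after their values were seen: S1pr5 rose by 0.60 ± 0.15 (adjusted p = 0.00647) and Kri1 by 0.23 ± 0.05 (adjusted p = 0.00488, but 0.0699 with arrays centred on their median). On the other side Ap1m2 rose by 0.30 ± 0.08 (adjusted p = 0.0103), a call lost without Adβgal replicates 4 to 6, at 0.19 (adjusted p = 0.102), with the replicate block (0.054) and with median centring (0.0525). Near Cdkn1a on chromosome 20, Cpne5 rose by 0.97 ± 0.21 (adjusted p = 0.00309) and Kctd20 by 0.43 ± 0.10 (adjusted p = 0.00474), the latter 0.28 without Adβgal replicates 4 to 6. Hebp1, 5 genes from Cdkn1b, read 10.62 ± 0.20 untreated, 11.10 ± 0.07 with Adβgal and 11.49 with AdNkx6.1, while Cdkn1b itself passed the test in none of the 3 comparisons with arrays weighted equally. It rose by 0.48 ± 0.09 with the control virus (adjusted p = 0.00526) and by 0.39 ± 0.09 from there with AdNkx6.1 (adjusted p = 0.00378). Dmrta1, next to Cdkn2b on chromosome 5, was lower than untreated already with the control virus, by -0.64 ± 0.17 (adjusted p = 0.0332), and with AdNkx6.1, by -1.03 ± 0.18 (adjusted p = 0.000349). Its difference of -0.39 ± 0.17 between AdNkx6.1 and Adβgal missed the threshold (adjusted p = 0.105) and passed it with median centring (0.0405). The call for the control virus was lost with the replicate block (0.0626), without Adβgal replicates 4 to 6 (0.116), and, with adjusted p from 0.055 to 0.0816, without any 1 untreated array or any 1 of Adβgal replicates 1, 3 and 6.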
